A study of Mus musculus with 4 samples.

Results

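Transcripts of the cytosolic translation factors, the proteins that start, extend and end each round of protein synthesis on the ribosome, were compared between control and Chd1-/- mouse embryonic stem (ES) cells. Members were chosen by gene symbol, with earlier results of these data known. They were the loci whose symbol starts with Eif1 to Eif6, Eef1 or Eef2, together with the release factor genes Etf1 and Gspt1 and the poly(A)-binding protein gene Pabpc1. The kinases of eIF2, the Argonaute genes once named Eif2c, the eIF4E-binding proteins with Eif4enif1, and the X- and Y-linked copies of the eIF2 gamma subunit were left out. This gave 52 genes of the 11728 named once in both deposited tables. All 52 were among the 10261 genes with a mean of at least 1 FPKM (fragments per kilobase of transcript, scaled to sequencing depth) over the 4 libraries, which were the genes tested. Eif4e3, a cap-binding protein of the eIF4E family, was listed in set 2 alone, at 0.866 FPKM in the control and 1.27 FPKM in the Chd1-/- library, and is not a member.

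The study asked how RNA output per cell depends on Chd1, an ATP-dependent chromatin remodeler of transcribed genes. All cells were of genotype Rosa26CreER;Chd1fl/-, with a tamoxifen-inducible Cre recombinase, 1 conditional and 1 null Chd1 allele, so the controls carried 1 functional allele. Control cells received ethanol, and Chd1-/- (Chd1-null) cells 1 µM tamoxifen, for 48 to 72 h, followed by 3 to 5 passages without tamoxifen in serum with LIF on gelatin. RNA of equal numbers of viable cells, with 92 synthetic ERCC transcripts added, was depleted of ribosomal RNA and sequenced as stranded paired reads of 100 bases. The labels name 2 sets of 1 control and 1 Chd1-/- library (n = 2 per group), and mention 2 independently derived lines without tying a set to a line. Ages, sex and strain of the source embryos are not given in the labels.

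Chd1 stood at 27.6 FPKM in the control and 5.71 FPKM in the Chd1-/- library of set 1, and at 17.9 and 8.52 FPKM in set 2, which is 20.7% and 47.7% of control; the exons removed are not given in the labels. The ES cell label was borne out by Pou5f1, the core pluripotency factor, at 599 and 541 FPKM in the controls and 510.2 and 403 FPKM in the Chd1-/- libraries. Of 8 ES cell markers, 8 were lower in both sets and 7 fell in the limma test (9.8% of all tested genes fell), and their summed level was 2662 and 3365 FPKM in the controls against 1973 and 1878 FPKM in the Chd1-/- libraries. Of 8 feeder and fibroblast markers only Col1a1 and Col3a1 reached the level for testing. Together they gave 1.38 and 6.01 FPKM in the controls and 0.877 and 2.68 FPKM in the Chd1-/- libraries, and Postn, Lum and Pdgfrb were not in both tables. FPKM summed over all loci to between 466994 and 719549 per library. The part of these differences in the results below was not tested.

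During initiation, eIF2 brings the initiator methionyl-tRNA to the small ribosomal subunit, eIF2B recharges eIF2 with GTP, eIF3 holds the complex together, and the eIF4 factors bind the cap and unwind the leader. In elongation, eEF1A delivers aminoacyl-tRNAs, the eEF1B subunits exchange its nucleotide, and eEF2 moves the ribosome along the mRNA; eRF1 (Etf1) and eRF3 (Gspt1) release the finished chain. Many of these factors, and Pabpc1, have mRNAs that begin with a terminal oligopyrimidine (TOP) tract, through which mTOR signalling and Larp1 set their translation in growing cells.

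For 41 of the 52 members a start-site sequence was found in RefSeq (GRCm38.p6; 52 promoter entries). The files use the build mm9 and give no coordinates, so the positions below belong to the RefSeq build only. The 60 bases around the annotated start, 30 on each side, are shown for 6 members. Eef1a1 and Eif1 fell and have the word TATATAA in their windows, in both downstream of the annotated start. Eef2 and Eif3f did not pass the test and are shown only as other members with a marked motif. In Eef2 the marked word lies upstream of the annotated start. The helicase paralogs Eif4a1 and Eif4a2 are the pair whose ratio is described below. Each is written on its transcript's strand, 5′ to 3′, and capitals mark TATANAA or CTCTTTC, motifs chosen after the sequences were seen.
Eef1a1, chr9:78481695-78481754, minus strand: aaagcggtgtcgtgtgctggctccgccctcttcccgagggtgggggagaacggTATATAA
Eif1, chr11:100319919-100319978, plus strand: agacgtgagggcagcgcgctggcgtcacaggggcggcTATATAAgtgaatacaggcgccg
Eef2, chr10:81176601-81176660, plus strand: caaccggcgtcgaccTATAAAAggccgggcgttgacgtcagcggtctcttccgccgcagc
Eif3f, chr7:108934385-108934444, plus strand: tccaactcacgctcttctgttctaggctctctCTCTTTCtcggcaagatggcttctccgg
Eif4a1, chr11:69672394-69672453, minus strand: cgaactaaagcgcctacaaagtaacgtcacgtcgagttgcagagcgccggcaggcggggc
Eif4a2, chr16:23107438-23107497, plus strand: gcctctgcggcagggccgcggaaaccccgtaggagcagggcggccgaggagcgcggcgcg

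TATANAA stood on the transcript strand in 3 of the 41 members with a sequence (Eef1a1, Eef2 and Eif1), and in 7.20% of all 32851 promoter entries. Eif3c held TATANAA on the reverse strand, as did 5.91% of all entries. CTCTTTC was found in Eif3f and Eif2b5 (3.99% of all entries), and on the reverse strand in Eif4e2 and Eif4g3 (4.32%). These shares count promoter entries, while members are counted by gene, so the shares and member counts were not compared. The shares are for the sequences searched and are not rates for the stretches printed above. The 2 motifs overlapped at no member shown. A match describes letters in the sequence and not a site in use.

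On the deposited scale, from equal numbers of cells, translation factor transcripts were lower in Chd1-/- cells by about as much as the median gene. The members' median log2 ratio of Chd1-/- over control was -0.33 in set 1 and -0.32 in set 2 (mean -0.32, SD 0.0049, n = 2 sets), or 0.797-fold and 0.800-fold, against -0.46 and -0.33 over all tested genes. When libraries were scaled to equal totals instead, the same medians were -0.0047 and 0.15, against -0.14 and 0.14 over all tested genes, so the direction turned in set 2. In limma, 11 of the 52 members fell at an adjusted p under 0.05 (21.2%, against 9.8% of all tested genes) and 0 rose (against 0.0682%); at an unadjusted p under 0.05 there were 21 (40.4%, against 29.2% of all tested genes), each of them lower. In bulk samples such as these, fewer cells of a type and less RNA per cell cannot be told apart. The 11 were Pabpc1, Eif1, Eef1a1, Eif4a2, Eef1e1, Eif2b4, Eif4g2, Eif5, Eif2s2, Eif2b3 and Eef1b2.

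Translation factors are abundant: 34 of the 52 lay in the top 10% of tested genes by mean FPKM, and 7 of these 34 fell, while 203 of all 1027 genes in that top 10% fell (19.8%; this comparison was chosen after the levels were seen). The standard errors of members ranged from 0.17 to 0.59 (median 0.18), with 0.28 as the median over all tested genes. With the dependence of the ratio on level removed within each set, the members' medians became -0.55 and -0.26, which is 0.094 below the all-gene median in set 1 and 0.064 above it in set 2, where the deposited values had put them 0.13 and 0.0082 above. Without set as a block in the model, or with 1 common prior variance, 0 of the 52 passed (lowest adjusted p = 0.461 and 0.288, both for Eef1a1; 9 and 7 members at an unadjusted p under 0.05), and 0 of all 10261 genes passed either. With a minimum of 5 FPKM, 4 of the 11, Pabpc1, Eif1, Eef1a1 and Eif4a2, passed, and with libraries scaled to equal totals 2, Eif1 and Pabpc1. With any 1 of the 4 libraries left out, which leaves no block, 0 members and 0 of all tested genes passed (4 to 11 members at an unadjusted p under 0.05).

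**Figure D1:**
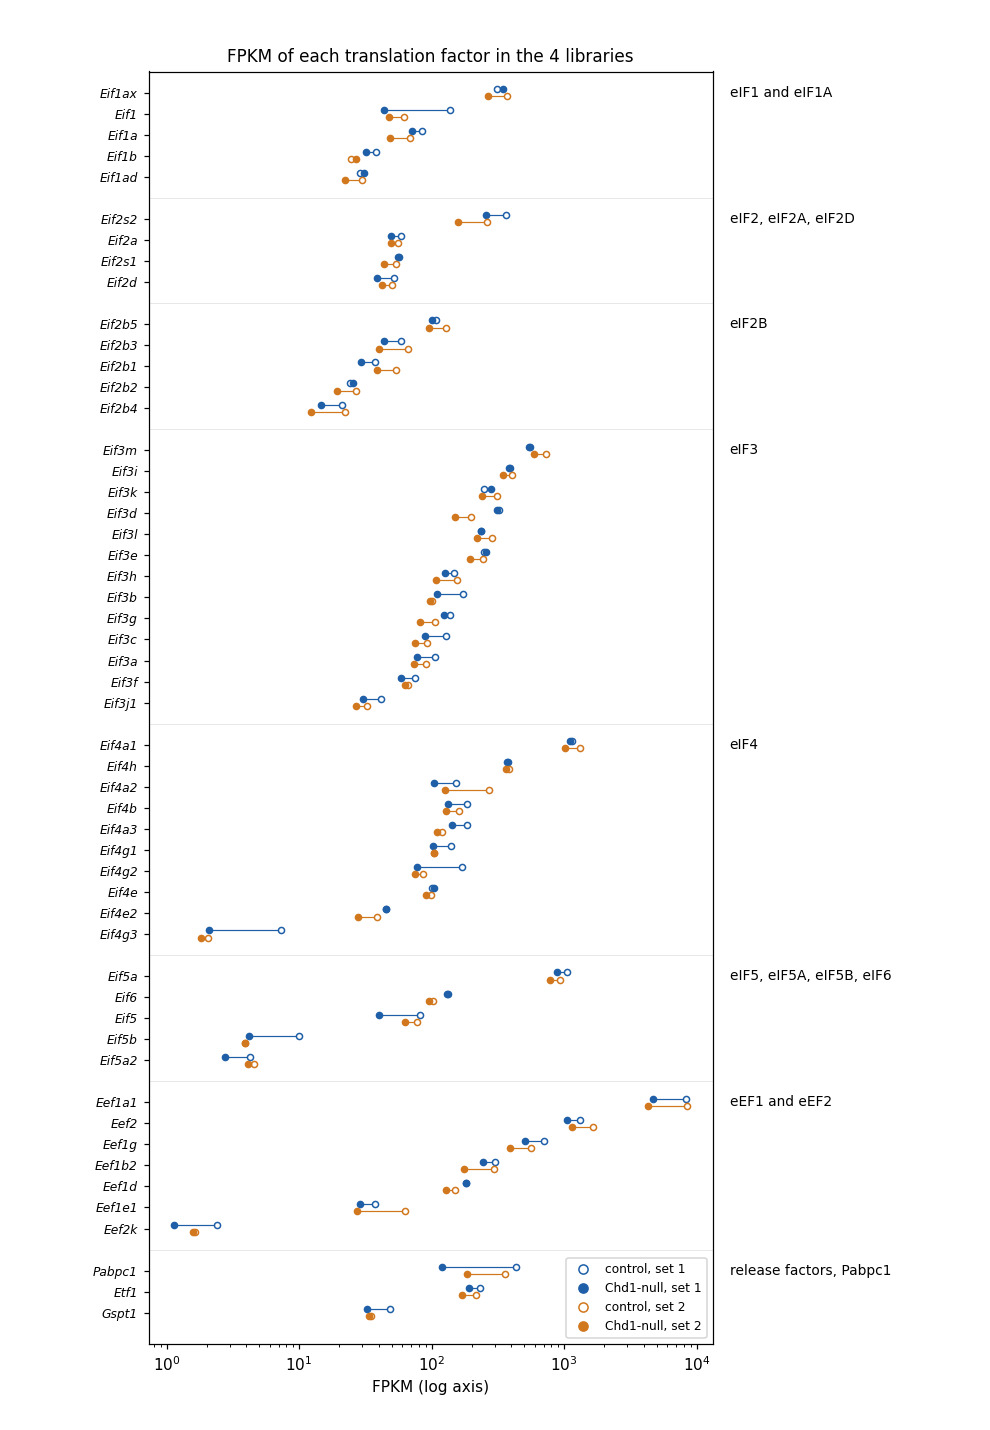
FPKM (log axis) of the 52 translation factors in the 4 libraries, grouped by complex and ordered by level; open circles are controls, filled circles Chd1-/- (Chd1-null) libraries, and a line joins the pair of a set. Levels run from 1.14 FPKM for Eef2k to 8473 FPKM for Eef1a1, and filled circles lie to the left of the open ones for 38 members in both sets; scaled to library totals, 25 members in set 1 and 37 in set 2 would lie to the right.

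The members were lower in both sets for 38 of 52 (73.1%, against 72.4% of all tested genes), higher in both for 0, and of opposite sign in 14 (26.9%, against 24.8%), of which 12 were higher in set 1 and lower in set 2 (against 9.94% of all tested genes). Relative to the all-gene medians, 17 lay above in both sets and 7 below in both, where 24.6% of all tested genes lay on each side. These shares were not counted among genes of similar level. The summed FPKM of the 52 was 19472 in the control and 14043 in the Chd1-/- library of set 1, and 19590 and 12724 in set 2. That is 72.1% and 65.0% of control, lower than the members' median ratios; the most abundant transcript, Eef1a1, was among those furthest down. Without Pabpc1, Eif1 and Eef1a1, the remaining 49 summed to 86.7% and 76.6% of control. The share of all FPKM taken by the 52 was 3.33% in control 1, 3.01% in Chd1-/- 1, 2.72% in control 2 and 2.46% in Chd1-/- 2.

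A comparison relative to the set median, which subtracts each set's all-gene median log2 ratio before the test, left Pabpc1 as the 1 member that fell (background 0.214%), and 0 rose (background 0.146%); at an unadjusted p under 0.05 there were 2, Pabpc1 and Eif1, both lower, where 6.29% of all tested genes had such a p. Across the 52 members the log2 ratios of the 2 sets were close to unrelated (Pearson r = 0.077, Spearman rho = -0.063, n = 52 genes that share the same libraries), although the control levels of the sets ran together (r = 0.978). The ratio was higher in set 1 than in set 2 for 32 members (61.5%, against 42.1% of all tested genes) and lower for 20. Abundant genes also stood higher in set 1: the top 10% of tested genes by mean FPKM had medians of -0.21 and -0.38. All tested genes had -0.46 and -0.33. The share with a higher ratio in set 1 was not counted within that top 10%. Since the sets differed, each set's own values are given for every member below.

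**Figure D2:**
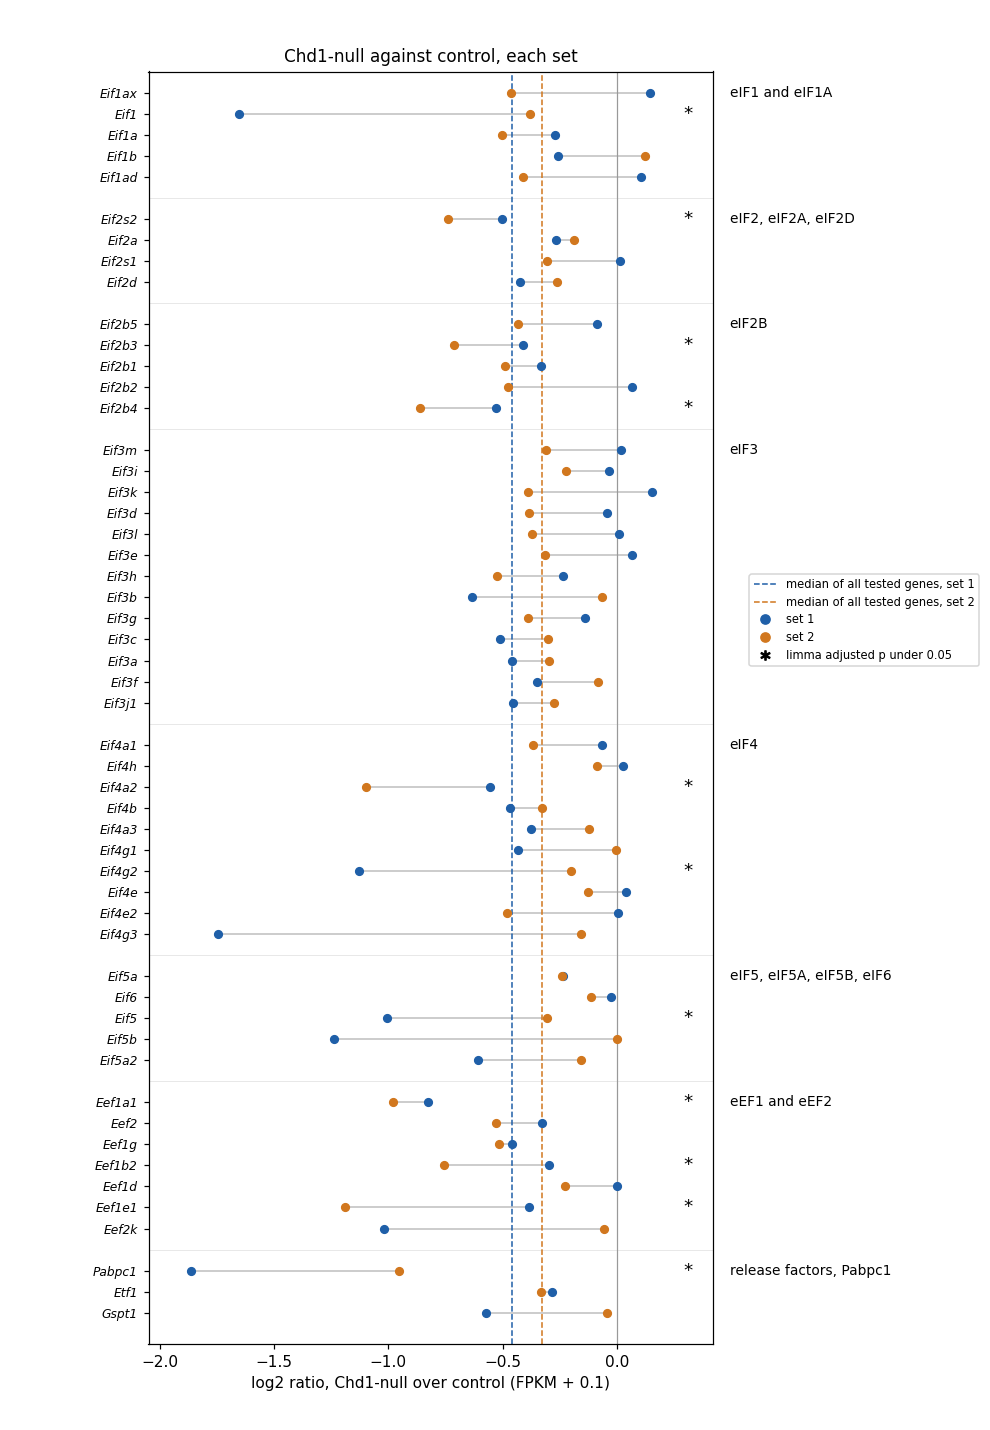
Log2 ratio of Chd1-/- (Chd1-null) over control for each translation factor in set 1 (blue) and set 2 (orange), by complex; dashed lines mark the all-gene medians of the sets (-0.46 and -0.33) and asterisks the 11 members with a limma adjusted p under 0.05. The pair of points of a member is often far apart, as for Eif4g3 and Eif5b; scaled to library totals, 34 of the 52 would have a positive mean.

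The start codon scanning factors hold the small subunit open until the AUG is found. Eif1, which keeps scanning stringent, stood at 137 FPKM in the control and 43.5 FPKM in the Chd1-/- library of set 1, and at 62.0 and 47.7 FPKM in set 2. It was lower in both sets, but far more so in set 1. Eif1 fell by 1.02 on the log2 scale (limma SE 0.18, adjusted p = 3.4e-06), from set ratios of -1.66 and -0.38. The limma SEs, here and below, rest on a spread shared by genes of similar level, not on that of the single gene. The 2 set ratios of Eif1 had an SD of 0.90. Relative to the median the difference of Eif1 was -0.62 (limma adjusted p = 0.377). Its close paralog Eif1b stood at 38.3 and 32.0 FPKM in set 1 and at 24.5 and 26.7 FPKM in set 2, one of the smallest mean changes of any factor (mean log2 ratio -0.067, SD 0.27, n = 2 sets). The FPKM ratio of Eif1 over Eif1b thus went from 3.58 to 1.36 in set 1 and from 2.53 to 1.79 in set 2.

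Eif1ax and Eif1a encode eIF1A, the partner of eIF1 on the small subunit. Eif1ax, the most abundant of the group, stood at 311 and 344 FPKM in set 1 and at 370.2 and 268 FPKM in set 2. It was higher in the Chd1-/- library of set 1 and lower in that of set 2. Eif1a went from 85.0 to 70.5 and from 68.5 to 48.3 FPKM, and Eif1ad, a factor with an eIF1A-like domain, had set ratios of 0.11 and -0.41. Only Eif1 passed among the 5 (9.8% of all tested genes fell), whose median log2 ratios were -0.26 and -0.41.

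eIF2 carries the initiator tRNA. Eif2s2, its beta subunit, stood at 365 and 258 FPKM in set 1 and at 263 and 158 FPKM in set 2, and it fell by 0.62 (SE 0.17, adjusted p = 0.00889). Eif2s1, the alpha subunit whose phosphorylation stops initiation under stress, was nearly level in set 1, at 56.0 and 56.6 FPKM, and lower in set 2, at 54.1 and 43.8 FPKM (mean log2 ratio -0.15, SD 0.23, n = 2 sets). The ratio of Eif2s1 over Eif2s2 went up in both sets by similar amounts, from 0.153 to 0.219 and from 0.206 to 0.278 (log2 change 0.52 and 0.43). Eif2a and Eif2d, which can bring Met-tRNA without eIF2, had set ratios of -0.27 and -0.19, and of -0.43 and -0.26.

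eIF2B, the exchange factor of eIF2, is built from 5 kinds of subunit. Eif2b4 (delta) stood at 21.1 and 14.6 FPKM in set 1 and at 22.3 and 12.2 FPKM in set 2, and fell by 0.70 (SE 0.23, adjusted p = 0.0294). Eif2b3 (gamma) went from 58.5 to 44.0 and from 66.2 to 40.3 FPKM and fell by 0.56 (SE 0.18, adjusted p = 0.0285). In both cases the Chd1-/- libraries lay below both controls. The share of all tested genes with such a separation was not counted, while 72.4% of them were lower in both sets. Eif2b5 (epsilon), the catalytic subunit and the most abundant, stood at 107, 101, 128 and 94.7 FPKM in control 1, Chd1-/- 1, control 2 and Chd1-/- 2. Eif2b1 (alpha) had set ratios of -0.33 and -0.49, and Eif2b2 (beta) of 0.064 and -0.48. The group differed between sets in its place among all genes, with 4 of 5 subunits above the median in set 1 and 0 of 5 in set 2.

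eIF3, the largest initiation factor, was represented by 13 genes, 1 for each of its subunits; Eif3j2, a second gene for the j subunit, was not among the members. None of the 13 passed in limma, either way, where 9.8% of all tested genes fell. An unadjusted limma p under 0.05 was found for 4 of the 13, against 29.2% of all tested genes. These were Eif3a, Eif3b, Eif3c and Eif3h, all lower (adjusted p between 0.101 and 0.153). The median log2 ratio was -0.14 in set 1, 0.32 above that of all genes, and -0.31 in set 2, 0.021 above. The top 10% of tested genes by mean FPKM had medians of -0.21 and -0.38. With the dependence on level removed, the mean of the eIF3 set medians went from -0.22 to -0.32. All tested genes then had medians of -0.45 and -0.33. The part of level in the place of eIF3 was not tested. Summed over subunits, eIF3 kept 94.3% and 80.4% of the control FPKM, the highest such share of the 8 groups in set 1. Eif3m, of the core octamer and the most abundant, stood at 545 and 553 FPKM in set 1 and at 733 and 592 FPKM in set 2. Eif3j1, a loosely bound subunit, was the lowest, at 41.8, 30.5, 32.3 and 26.7 FPKM in the same order of libraries.

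Within eIF3 the sets ordered the subunits differently. In set 1 the lowest ratio was that of Eif3b, the RNA-binding scaffold of the outer module (-0.64), and the highest that of Eif3k (0.16). In set 2 Eif3b was among the highest (-0.063), Eif3k stood at -0.39, and Eif3h was lowest (-0.53). The remaining subunits had ratios of -0.46 and -0.30 for Eif3a, -0.51 and -0.30 for Eif3c, -0.045 and -0.38 for Eif3d, 0.066 and -0.32 for Eif3e, and -0.35 and -0.081 for Eif3f. Those of Eif3g were -0.14 and -0.39, of Eif3i -0.035 and -0.22, and of Eif3l 0.011 and -0.37. Split by structure, the 8 subunits of the core octamer had medians of -0.11 and -0.31, and the 5 outer subunits -0.14 and -0.28, so the parts did not stand apart.

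Transcript length ran with the order of the subunits in set 1, and the other way in set 2. Over the 13 subunits the log2 ratio correlated with the log2 length of the longest annotated mRNA at r = -0.80 in set 1 (rho = -0.75) and r = 0.41 in set 2 (rho = 0.58). The 5 subunits with an mRNA over 2000 bases (Eif3a, Eif3b, Eif3c, Eif3f and Eif3j1; 2514 to 5413 bases) had set 1 ratios of -0.64 to -0.35. The 8 shorter ones (909 to 1942 bases) had ratios of -0.24 to 0.16, so the groups did not overlap in set 1. In set 2 the long ones ran from -0.30 to -0.063 and the short ones from -0.53 to -0.22, which overlapped, with the long ones now higher. The limit of 2000 bases was chosen after the values were seen. Length is no property of eIF3 alone: r was -0.41 and 0.19 over the 52 members, and -0.36 and 0.18 over 9625 tested genes with a length. Long members (26 over 2632 bases) had medians of -0.46 and -0.29, short ones -0.24 and -0.39. The part of length in any difference between the members was not tested.

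**Figure D3:**
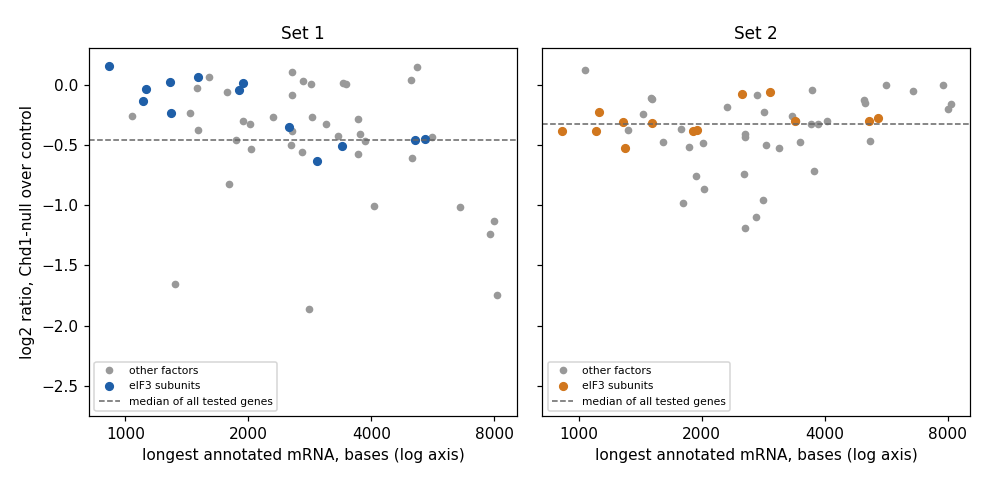
Log2 ratio of Chd1-/- (Chd1-null) over control against the length of the longest annotated mRNA (log axis, bases) in set 1 (left) and set 2 (right), with eIF3 subunits coloured, the other factors grey, and the all-gene median dashed. Ratios go down with length in set 1 (r = -0.41 over 52 members) and weakly up in set 2 (r = 0.19).

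The eIF4 group binds the cap and unwinds the leader. Eif4a2, a helicase, stood at 152 FPKM in the control and 103 FPKM in the Chd1-/- library of set 1, and at 271 and 126 FPKM in set 2. It fell by 0.83 (SE 0.17, adjusted p = 1.7e-04; set ratios -0.56 and -1.10). Its abundant paralog Eif4a1 stood at 1147 and 1097 FPKM in set 1 and at 1308 and 1014 FPKM in set 2 and did not pass (adjusted p = 0.431). The FPKM ratio of Eif4a1 over Eif4a2 went from 7.55 to 10.6 in set 1 and from 4.83 to 8.02 in set 2, a log2 change of 0.61 (SD 0.17, n = 2 sets). Eif4a3, the helicase of the exon junction complex, stood at 185, 142, 120.3 and 111 FPKM in control 1, Chd1-/- 1, control 2 and Chd1-/- 2. The ratio of Eif4a1 over Eif4a3 moved in opposite directions, by 0.31 in set 1 and -0.25 in set 2.

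Of the eIF4G scaffolds, Eif4g2 (a shortened form that lacks the eIF4E site) stood at 169.9 and 77.7 FPKM in set 1 and at 86.8 and 75.5 FPKM in set 2. Control 1 stood far above the other 3 libraries, which lay close together. Eif4g2 fell by 0.66 (SE 0.17, adjusted p = 0.00469), with -0.20 in set 2 alone. Eif4g1, the main scaffold, went from 139 to 103 FPKM in set 1 and stayed within 1 FPKM in set 2 (set ratios -0.43 and -0.0057). The ratio of Eif4g1 over Eif4g2 changed by 0.69 and 0.20. Eif4g3 stood at 7.23 FPKM in control 1 and at 2.09, 2.04 and 1.82 FPKM in the other libraries. With a standard error of 0.46, its difference of -0.95 did not pass (adjusted p = 0.147).

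Eif4h and Eif4e were among the members whose level differed least between the groups. Eif4h, a helicase cofactor, stood at 369, 376, 387 and 364 FPKM in control 1, Chd1-/- 1, control 2 and Chd1-/- 2. Eif4e, the cap-binding subunit, stood at 101, 104, 99.3 and 90.9 FPKM. With Eif1b these had the highest mean log2 ratios of the members above the median in both sets (-0.030 for Eif4h, -0.044 for Eif4e), or 0.36, 0.35 and 0.33 above the all-gene medians for Eif4h, Eif4e and Eif1b; relative to the median, none of the 3 passed (adjusted p = 0.998, 0.954 and 0.978). Eif4e2, a weaker cap binder, stood at 45.4 and 45.5 FPKM in set 1 and at 38.5 and 27.6 FPKM in set 2. Eif4b, the other cofactor, had set ratios of -0.47 and -0.33 (adjusted p = 0.103).

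Joining of the large subunit needs eIF5, which triggers GTP hydrolysis on eIF2, and eIF5B. Eif5 stood at 81.1 and 40.4 FPKM in set 1 and at 77.3 and 62.6 FPKM in set 2. It fell by 0.65 (SE 0.18, adjusted p = 0.00777), most of it in set 1 (set ratios -1.0 and -0.30). Eif5b stood at 10.0 FPKM in control 1 and at 4.20, 3.93 and 3.93 FPKM elsewhere, so control 1 alone was high. Eif5a, the hypusine-bearing factor that helps the ribosome through stalling sequences, was the most abundant of the group at 1044 and 888 FPKM in set 1 and 925 and 782 FPKM in set 2. Its set ratios were nearly equal, -0.23 and -0.24, and it did not pass (adjusted p = 0.374). Its minor paralog Eif5a2 stood at 4.26, 2.76, 4.56 and 4.08 FPKM in control 1, Chd1-/- 1, control 2 and Chd1-/- 2 (set ratios -0.61 and -0.16). Neither it nor Eif6, which keeps the ribosomal subunits apart (-0.026 and -0.11), passed.

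The elongation factor group, counted here with Eef1e1 and Eef2k, held most of the difference in summed FPKM between control and Chd1-/- libraries. Eef1a1 alone stood at 8255 FPKM in the control and 4652 FPKM in the Chd1-/- library of set 1, and at 8473 and 4297 FPKM in set 2, which is 56.3% and 50.7% of control. Both Chd1-/- libraries lay far below both controls, a separation not counted over all tested genes, and the sets were close. Eef1a1 fell by 0.90 (SE 0.26, adjusted p = 0.0128), but relative to the median the difference of -0.51 had an SE of 0.53 and did not pass (adjusted p = 0.998). With no filter on low values, Eef1a1 was not called. Processed copies of such highly expressed genes can share reads with them, and how the authors' counting treated shared reads is not given in the sources used here.

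The subunits that recharge eEF1A did not move alike. Eef1b2, the beta subunit, stood at 303 and 246 FPKM in set 1 and at 296 and 175 FPKM in set 2, and fell by 0.53 (SE 0.17, adjusted p = 0.0289). Eef1g, the gamma subunit, went from 701 to 509 and from 559 to 391 FPKM and missed the threshold (-0.49, adjusted p = 0.0565). Eef1d, the delta subunit, was level in set 1, at 181 and 182 FPKM, and went from 149 to 128 FPKM in set 2. Eef1d over Eef1b2, which share the exchange function, went from 0.599 to 0.739 and from 0.504 to 0.729 as an FPKM ratio, and Eef1g over Eef1a1 changed by 0.37 and 0.46 on the log2 scale. With 2 pairs, an exact two-sided sign-flip test cannot give a p below 0.5, and no test of these ratios was made.

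Eef1e1, a scaffold protein of the multi-tRNA-synthetase complex despite its name, stood at 37.3 and 28.6 FPKM in set 1 and at 62.6 and 27.4 FPKM in set 2. It fell by 0.79 (SE 0.19, adjusted p = 0.00233), and further in set 2, where the control was high, than in set 1 (-0.38 and -1.19). Eef2, the translocase, went from 1319 to 1053 and from 1651 to 1144 FPKM and did not pass (-0.43, adjusted p = 0.137). Eef2k, the kinase that inhibits eEF2, was the lowest member at 2.41, 1.14, 1.64 and 1.57 FPKM (adjusted p = 0.512).

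Pabpc1, which binds the poly(A) tail and the eIF4G scaffold, had the lowest mean log2 ratio of the 52. It stood at 436 FPKM in the control and 119.8 FPKM in the Chd1-/- library of set 1, and at 357 and 184 FPKM in set 2, which is 27.5% and 51.6% of control. The groups did not overlap, which was not counted over all tested genes. Pabpc1 fell by 1.41 (SE 0.17, adjusted p = 3.4e-13) and also relative to the median, where the difference was -1.01 (SE 0.25, adjusted p = 0.0209). That relative call was lost without the block, with 1 common prior variance, with no filter, with a minimum of 5 FPKM, with the level trend removed and with any library left out. The release factors stood elsewhere: Etf1 at 233 and 191 FPKM in set 1 and 215 and 171 FPKM in set 2 (adjusted p = 0.204), and Gspt1 at 48.6 and 32.6 FPKM in set 1 and 34.7 and 33.6 FPKM in set 2 (adjusted p = 0.255). Etf1 over Gspt1 changed by 0.29 in set 1 and -0.29 in set 2, with no common direction.

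**Figure D4:**
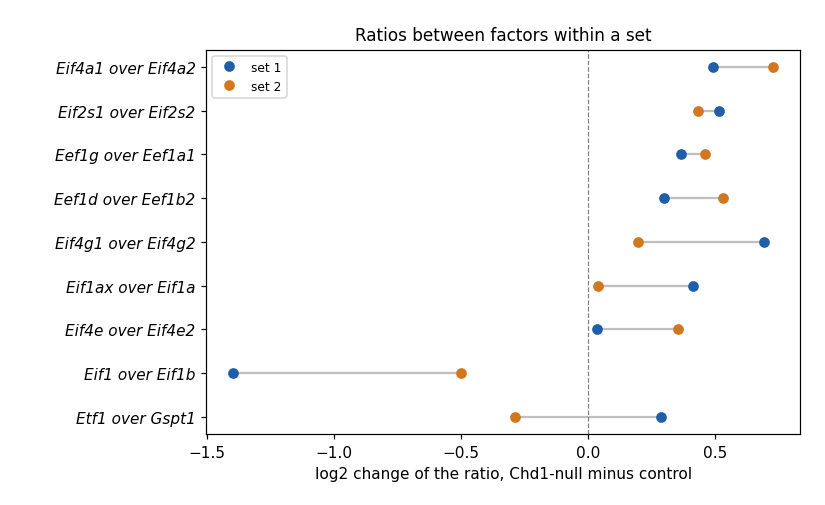
Log2 change, from control to Chd1-/- library, of the FPKM ratio between related factors in set 1 (blue) and set 2 (orange). Eif4a1 over Eif4a2, Eif2s1 over Eif2s2, Eef1g over Eef1a1, Eef1d over Eef1b2 and Eif4g1 over Eif4g2 lie above 0 in both sets. So do Eif1ax over Eif1a (0.42 in set 1 and 0.040 in set 2) and Eif4e over Eif4e2 (0.035 and 0.35), each with a value close to 0. Eif1 over Eif1b lies below 0 in both, and Etf1 over Gspt1 on opposite sides. Being ratios within a library, they do not depend on how libraries are scaled to each other.

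Ratios between complexes were taken within each set, since each set has its own table. Of the 28 pairs of the 8 groups, 10 kept the same order of median log2 ratio in both sets, and 22 kept the same order of the summed FPKM ratio. The elongation factor group, with Eef1e1 and Eef2k, stood below eIF3 by 0.24 in set 1 and 0.22 in set 2 (mean -0.23, SD 0.016, n = 2 sets). Its set 1 median was the ratio of Eef1e1 (-0.38), so the size of this gap depends on the members counted. The 4 eEF1 subunits alone had medians of -0.38 and -0.64, against -0.14 and -0.31 for eIF3. The eIF2B group stood below eIF3 by 0.19 and 0.18. Summed over genes, elongation factors kept 61.8% and 55.1% of control FPKM, a log2 difference from eIF3 of -0.61 and -0.55. As shares of all translation factor FPKM, elongation factors went from 55.5% to 47.5% in set 1 and from 57.1% to 48.4% in set 2, while eIF3 went from 14.4% to 18.8% and from 14.4% to 17.8%. The eIF4 group summed to 87.4% and 79.3% of control, the eIF5 to eIF6 group to 83.7% and 85.2%, eIF2B to 86.4% and 69.0%, and eIF2 with Eif2a and Eif2d to 75.5% and 69.0%. The scanning factors summed to 86.8% and 74.4%, and the release factors with Pabpc1 to 47.9% and 64.1%. These are descriptions of 2 pairs without a test.

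**Figure D5:**
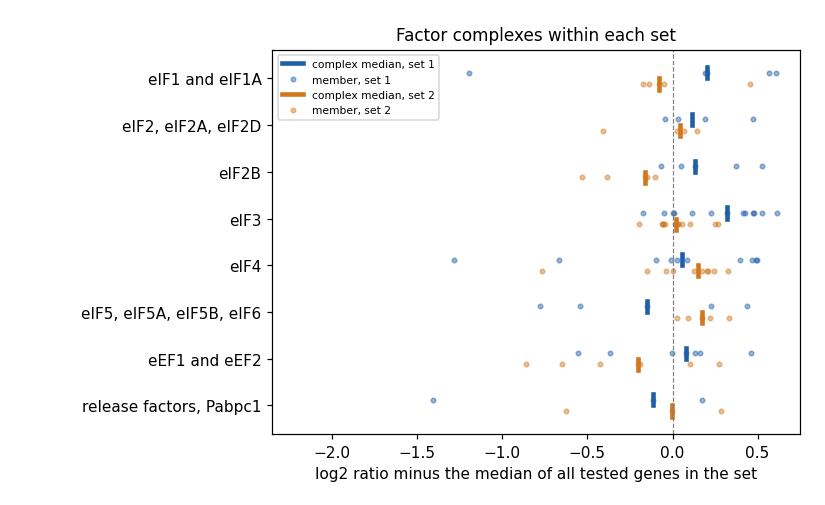
Log2 ratio of each translation factor minus the all-gene median of its set (points), with the median of each complex (bars), in set 1 (blue) and set 2 (orange). eIF3 lies 0.32 above the all-gene median in set 1 and 0.021 above in set 2, and the elongation factor group 0.077 above and 0.20 below. Before centring, the top 10% of tested genes by mean FPKM had medians of -0.21 and -0.38, where all tested genes had -0.46 and -0.33. With the dependence on level removed, the medians of all 52 move to -0.55 and -0.26 before centring.

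Members known to carry a TOP tract (Eef1a1, Eef1b2, Eef1d, Eef1g, Eef2, Eif3e, Eif3f, Eif3h, Eif4b and Pabpc1) summed to 61.9% and 56.3% of control FPKM, a sum in which Eef1a1 is the largest term, and the other 42 to 88.0% and 79.1%. By gene rather than by FPKM the lists lay closer: 3 of the 10 fell, with medians of -0.34 and -0.52, and 8 of the other 42 fell, with medians of -0.31 and -0.30 (9.8% of all tested genes fell). Small nucleolar RNAs lie inside 8 members in the GENCODE annotation (Eef1b2, Eef2, Eif3a, Eif4a1, Eif4a2, Eif4g1, Eif4g2 and Eif5). All 8 were lower in both sets and 4 fell (medians -0.45 and -0.34), against 30 lower in both and 7 that fell among the other 44 (medians -0.28 and -0.32); over all tested genes the shares were 72.4% and 9.8%.

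Genes that act on these factors were described from lists set beside the members. Of 23 regulators 21 were tested; 4 fell and 0 rose, with 10 at an unadjusted p under 0.05 and medians of -0.40 in both sets. Over all tested genes 9.8% fell and 29.2% had such an unadjusted p. Eif4ebp2, an inhibitor of eIF4E, stood at 20.2 and 4.81 FPKM in set 1 and at 13.6 and 8.61 FPKM in set 2, and fell by 1.35 (SE 0.26, adjusted p = 6.1e-05). The other 3 were Ppp1r15b, which targets a phosphatase to eIF2 (fell by 0.80, limma adjusted p = 0.00520), Paip2b, an inhibitor of poly(A)-binding protein (fell by 0.74, adjusted p = 0.0152), and Larp1, which binds TOP mRNAs (fell by 0.65, adjusted p = 0.0144). Their set ratios were -1.01 and -0.59 for Ppp1r15b, and -0.92 and -0.56 for Paip2b. Those of Larp1 were -1.08 and -0.22, so most of its difference lay in set 1. At the other end stood the S6 kinase gene Rps6kb2 (-0.32 and 0.62) and Dhps, the first enzyme of hypusine synthesis on eIF5A (0.10 and 0.086), neither called.

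Of 15 helpers of initiation, recycling and rescue, 0 fell and 0 rose in limma (3 at an unadjusted p under 0.05, against 29.2% of all tested genes), with medians of -0.26 and -0.29. Mcts1, which works with Denr in recycling and reinitiation, had the highest mean, at 0.34 and 0.061, and N6amt1, part of the methyltransferase of eRF1, the lowest, at -0.75 and -0.81. Of 10 mitochondrial translation factors, 1 fell and 0 rose (9.8% of all tested genes fell), with medians of -0.28 and -0.21. That gene was Tsfm, the mitochondrial exchange factor, at 62.8 and 53.1 FPKM in set 1 and 101 and 51.4 FPKM in set 2; it fell by 0.61 (SE 0.18, adjusted p = 0.0140), mostly in set 2.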

How the data were processed

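RNA-seq values of 4 mouse ES cell libraries were used. The deposited values were taken as FPKM, a unit that no header writes. It was inferred from the values and from the submitters' processing notes, which list the build mm9 and, with no role for each, Cuffdiff, Cufflinks 2.2.0, TopHat and TopHat2 2.0.10. How the ERCC transcripts entered the authors' scaling is not given in the sources used here, so comparisons per cell rest on the values as deposited. The deposited ratio column (Chd1-/- over control) equalled the quotient of the FPKM columns to a relative difference of 4.97e-06 and was not used further. The lowest deposited FPKM was 0.100; with FPKM alone the read depth is unknown, and intervals for counting error were not computed.

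The 16553 loci of set 1 and 16967 of set 2 were joined by symbol; unnamed, merged and repeated loci were left out. log2(FPKM + 0.1), which understates changes of low genes, was fitted with limma 3.58.1 in R 4.3.3 (lmFit, eBayes with a trend), two-sided, with set as a block, over 10261 genes with a mean of at least 1 FPKM, and adjusted by Benjamini-Hochberg over all of them at 0.05; for the relative comparison the all-gene median log2 ratio of a set was taken off its Chd1-/- values. The sets were taken as pairs because they have separate tables and the protocol names 2 lines; the 2 libraries of a set deviated together from the means of their groups (r = 0.483 over tested genes). Prior degrees of freedom were infinite, so p-values rest on a spread shared by genes of similar level, not on that of the single gene; nothing says that the sets are separate cultures beyond the lines named. The script was tested on simulated data. mRNA lengths and small nucleolar RNAs came from GENCODE M21 and start-site sequences from RefSeq (GRCm38.p6), matched by symbol.

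Every member is named; values in each library are given for called members, for the 3 highest and 3 lowest by mean ratio among those on the same side of both set medians, for the most abundant member of each complex and for paralog pairs. Partner genes are named where called or at the ends of their list. Members, lists and tests were chosen with earlier results of these data known. Alternatives tried were a pseudocount of 1, no filter, a minimum of 5 FPKM, no replicate block, 1 common prior variance, scaling to library totals, removal of the trend on level, summing loci of 1 symbol, and leaving out each library.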

Additional observations from a re-analysis of the deposited data

Results flagged for a closer look

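The 2 sets moved in opposite directions for 14 of the 52 members (26.9%, against 24.8% of all tested genes), and the difference between the sets was not tested, since each set has 1 pair. The 12 that were higher in the Chd1-/- library of set 1 and lower in that of set 2, a pattern seen in 9.94% of all tested genes, are given by the set 1 minus set 2 difference of their log2 ratios: Eif1ax 0.61, Eif3k 0.54, Eif2b2 0.54, Eif1ad 0.52, Eif4e2 0.48, Eif3l 0.38, Eif3e 0.38, Eif3m 0.33, Eif2s1 0.32, Eef1d 0.23, Eif4e 0.16 and Eif4h 0.12. Eif1ax, Eif3k, Eif2b2 and Eif1ad lead this group, and 4 of the 12 are eIF3 subunits, as are 13 of the 52 members. The other 2, lower in set 1 and level or higher in set 2, were Eif5b, with a difference of -1.24, and Eif1b, with -0.38. For Eif5b the set 2 ratio was 0.00052, so its sign there has no weight, and the control of set 1 stood at 10.0 FPKM against 3.93 FPKM in that of set 2. The shares of these patterns among genes of similar level were not counted. The 14 are given as values, with no explanation.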

How the results depend on the processing

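The 11 members that fell were also 11 with a pseudocount of 1 or with loci of 1 symbol summed, 10 with no filter, 9 with the level trend removed (8 shared; Eef1g gained, Eif2b4, Eif4g2 and Eif5 lost), 4 with a minimum of 5 FPKM and 2 with library totals (Eif1 and Pabpc1). With no replicate block, that is without pairing the libraries of a set, the count was 0 (9 at an unadjusted p under 0.05), and it was 0 with 1 common prior variance (7) and with any 1 library left out and no block (4 to 11). No member rose under any of these settings. Over all tested genes, 1006 fell and 7 rose, against 225 and 2 with a minimum of 5 FPKM, 37 and 50 with library totals, 634 and 4 with the trend removed, and 0 and 0 with no replicate block, with a common prior variance or with any library left out. Relative to the set median, the count of 1 lower member was kept with a pseudocount of 1 and with summed loci, was 2 with library totals, and was 0 with no filter, a minimum of 5 FPKM, no replicate block, a common prior variance, the trend removed, or a library left out (the 4 leave-one-out values were all 0); 0 were higher throughout. The filters change the genes tested, the block and the prior change the spread, and library totals, the trend and the pseudocount change the values; the cause of each change was not tested.

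The members' median log2 ratio in set 1, set 2 and their mean was -0.30, -0.33 and -0.31 with a minimum of 5 FPKM, -0.0047, 0.15 and 0.074 with library totals, and -0.55, -0.26 and -0.41 with the level trend removed. With library totals the mean of the set medians became -0.058 for the elongation factors, 0.083 for the eIF2 group, -0.011 for eIF2B, 0.18 for eIF3, 0.10 for the eIF4 group, 0.063 for the scanning factors, 0.0067 for the eIF5 to eIF6 group and -0.053 for the release factors with Pabpc1. It was also -0.78 for the elongation factors from summed FPKM, -0.38 for the eIF2 group with the level trend removed, -0.47 for the eIF2 group from summed FPKM and -0.85 for the release factors with Pabpc1 from summed FPKM. With 1 set left out the medians were -0.33 to -0.32 over all members, and -0.53 to -0.38 for the elongation factors, -0.35 to -0.28 for the eIF2 group, -0.49 to -0.33 for eIF2B, -0.31 to -0.14 for eIF3, -0.41 to -0.18 for the eIF4 group, -0.41 to -0.26 for the scanning factors, -0.61 to -0.16 for the eIF5 to eIF6 group and -0.57 to -0.33 for the release factors with Pabpc1.

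With library totals, 34 members had a log2 difference above 0: Eef1d 0.29, Eif1a 0.012, Eif1ad 0.25, Eif1ax 0.24, Eif1b 0.33, Eif2a 0.17, Eif2b2 0.19, Eif2b5 0.14, Eif2d 0.055, Eif2s1 0.25, Eif3a 0.020, Eif3b 0.050, Eif3d 0.18, Eif3e 0.27, Eif3f 0.18, Eif3g 0.14, Eif3h 0.018, Eif3i 0.27, Eif3j1 0.033, Eif3k 0.28, Eif3l 0.22, Eif3m 0.25, Eif4a1 0.18, Eif4a3 0.15, Eif4b 0.00093, Eif4e 0.35, Eif4e2 0.16, Eif4g1 0.18, Eif4h 0.37, Eif5a 0.16, Eif5a2 0.0067, Eif6 0.33, Etf1 0.091 and Gspt1 0.089. Leaving out libraries turned the direction of some members at 1 end of the range; the lowest and highest values were Eef1d -0.37 to 0.14, Eif1ad -0.41 to 0.11, Eif1ax -0.46 to 0.15, Eif1b -0.39 to 0.25, Eif2b2 -0.48 to 0.064, Eif2s1 -0.33 to 0.040, Eif3b -0.73 to 0.031, Eif3d -0.74 to 0.31, Eif3e -0.33 to 0.075, Eif3g -0.57 to 0.046, Eif3k -0.39 to 0.16, Eif3l -0.37 to 0.011, Eif3m -0.36 to 0.070, Eif4a3 -0.56 to 0.061, Eif4e -0.14 to 0.053, Eif4e2 -0.60 to 0.12, Eif4h -0.088 to 0.028, Eif5b -1.28 to 0.047 and Eif6 -0.30 to 0.16. Library totals remove any change shared by all transcripts of a cell. The deposited scale keeps such a change only if the authors' scaling followed cell number, which the sources used here do not settle. With 2 pairs per comparison and unknown read depth, values of low members such as Eef2k, Eif4g3, Eif5b and Eif5a2 are the least certain.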
